A study of Saccharomyces cerevisiae with 4 samples.

Results

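The genes described here code for the yeast machinery that shortens, decaps and degrades mRNA and for RNA-binding proteins that gather in P-bodies or stress granules. A list of 40 genes was matched by name to the gene names of the authors' deposited table, whose row identifiers are those of the count files. All 40 were found among the 7126 features of the files. They fall into 14 decapping genes, 9 deadenylation genes, 3 genes of nonsense-mediated decay, 3 genes of the Ski complex and its partner, and 11 genes of RNA-binding regulators. What is measured is the reads that Mip6, another RNA-binding protein, gave on the mRNAs of these genes, not the activity or amount of the proteins they code for.

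Most yeast mRNAs are degraded after their poly(A) tail has been shortened, first by the Pan2-Pan3 enzyme and then by the Ccr4-Not complex. The cap is then removed by Dcp1-Dcp2, with Pat1, Dhh1, the Lsm1-7 ring and the Edc proteins as activators, and the body of the mRNA is digested from its front end by Xrn1. From the back end the exosome acts with the Ski complex, and nonsense-mediated decay removes mRNAs with a premature stop codon. Under stress such as heat, untranslated mRNAs collect with these proteins in P-bodies and stress granules.

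The samples came from Saccharomyces cerevisiae of the strain Mip6-HTB, in which Mip6 carries an HTB tag and was purified on nickel and then streptavidin beads. RNA was joined to Mip6 by PAR-CLIP: 4-thiouracil is built into new RNA, and ultraviolet light, here 365 nm for 15 min, crosslinks it to bound protein. One culture condition stayed at 30 °C with 4-thiouracil for 45 min, and the other had 25 min of it at 30 °C and 20 min at 39 °C. The labels list 4 samples, 1 for each strand of the genome at each temperature, and the strands are parts of 1 library per temperature and not replicates. No test between temperatures was therefore possible and no p-value is given.

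The 30 °C library held 11657228 reads in features and the 39 °C library 6950540. The strand on which a gene lies was read from its systematic name, and reads in the file of that strand are called own-strand reads. They made up 91.4% of the reads of 6685 such reading frames at 30 °C and 88.6% at 39 °C. Every member had enough reads to be measured, from 322 to 5229 own-strand reads at 30 °C and from 133 to 2610 at 39 °C. A level is given as CPM, own-strand reads scaled to 1000000 reads in features of both strand files, and a change as the log2 ratio of 39 °C over 30 °C after adding 0.5 to each count. Intervals are exact 95% intervals of the counts, treat every read as an independent draw, and leave out the spread between cultures. Neither an input RNA nor an untagged strain was among the samples used here, so a level reflects the amount of the mRNA as well as its crosslinking to Mip6. The libraries come from whole cultures, in which fewer cells with an mRNA and less of it per cell cannot be told apart.

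The mRNAs of this machinery mostly differed by less than 2-fold in Mip6 reads between 30 °C and 39 °C. Of the 40 genes, 39 lay within 2-fold, none was at least 2-fold higher at 39 °C, and 1, STM1, was at least 2-fold lower. Over all 6162 reading frames with at least 20 own-strand reads, 4.4% were at least 2-fold higher and 2.69% at least 2-fold lower, so both counts among the members are near the background. The members ranged from a log2 ratio of -1.09 for STM1 to 0.87 for MPT5. Their median was -0.12, against -0.03 over all tested reading frames, whose quartiles were -0.33 and 0.28. Together they took 0.646% of the reads in features at 30 °C and 0.606% at 39 °C. The counting interval lay above no change for 11 members and below it for 18, against 31.5% and 38.8% of all tested reading frames. By group, the median log2 ratio was -0.22 for decapping, 0.05 for deadenylation, -0.08 for nonsense decay, -0.15 for Ski and -0.09 for RNA-binding genes. The decapping median rested on LSM2 to LSM7, without which it was 0.010. It was -0.19 when centred on the median of all reading frames. Centred by length class, under 600 bases or longer, it was -0.10.

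**Figure D1:**
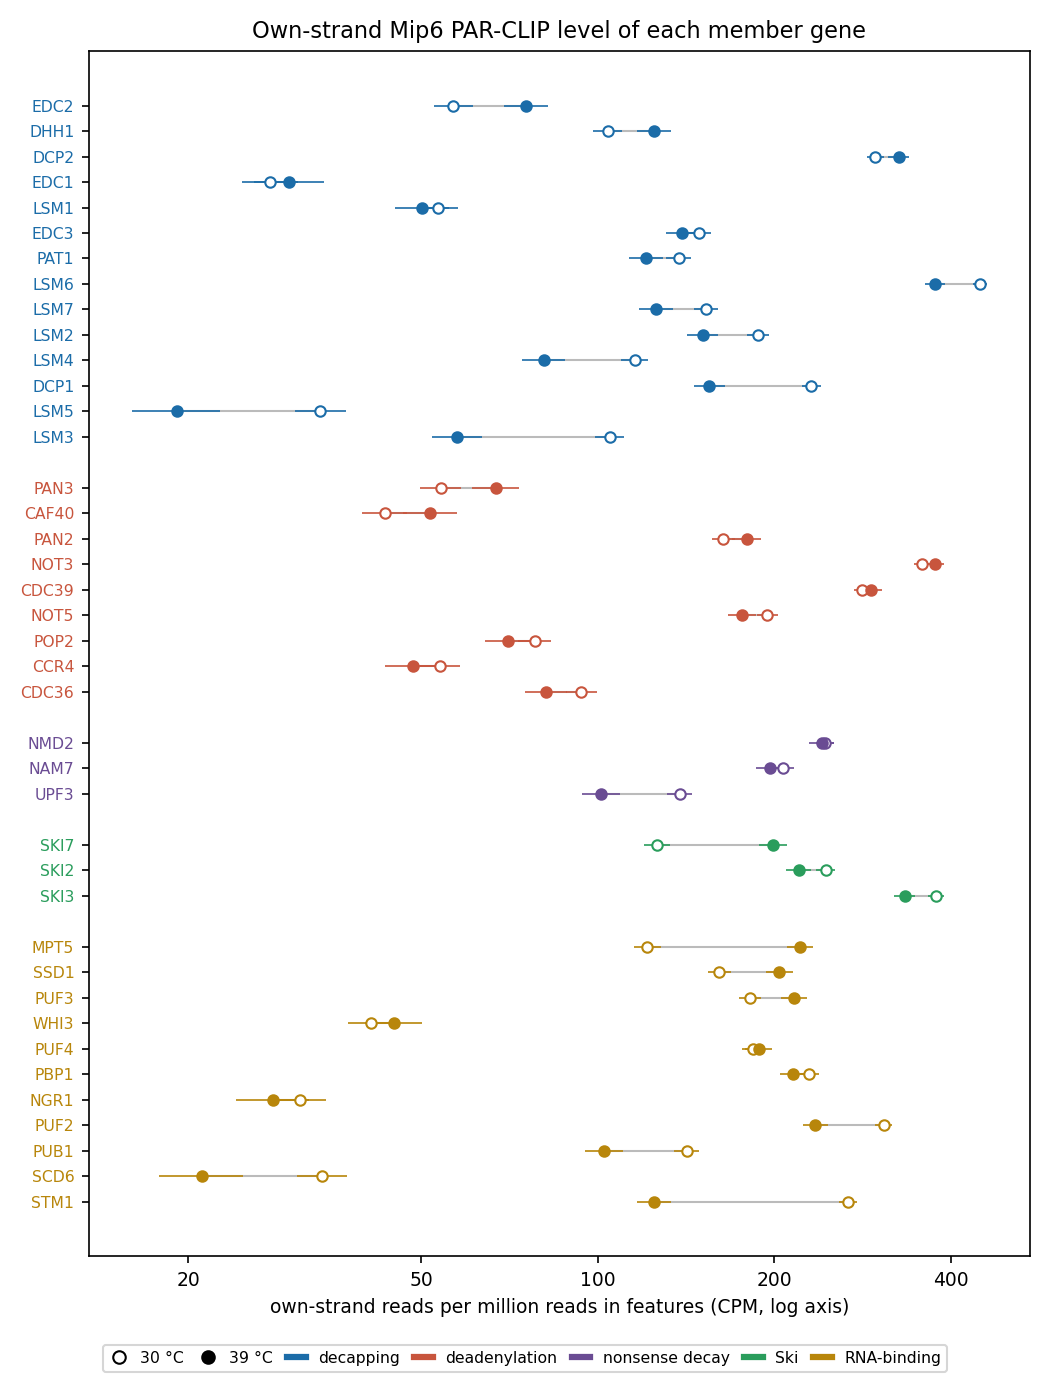
Own-strand level of each of the 40 genes at 30 °C (open circles) and 39 °C (filled circles) in CPM on a log axis, with exact 95% Poisson intervals of the counts and 1 library per temperature. Names are coloured by group, and within a group genes run from the highest to the lowest ratio; STM1, MPT5, SKI7 and LSM3 show wide gaps between the circles.

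**Figure D2:**
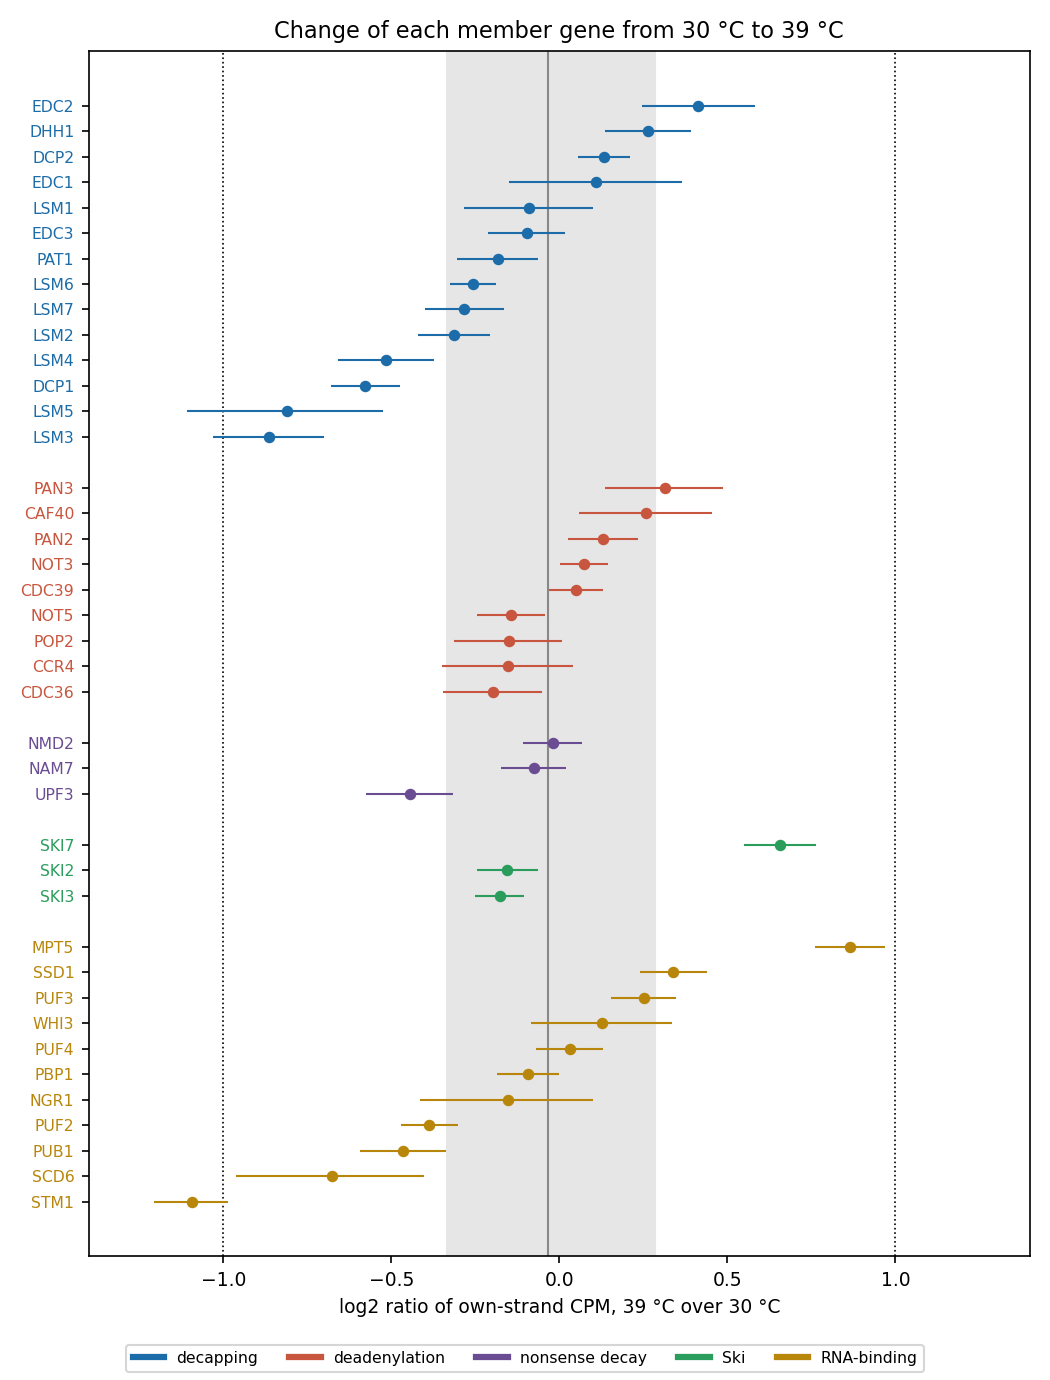
Log2 ratio of own-strand CPM, 39 °C over 30 °C, for each gene with its exact 95% counting interval. The grey band spans the quartiles of all 6162 tested reading frames, -0.33 to 0.28, the grey line is their median, and dotted lines mark 2-fold; STM1 alone lies past a dotted line.

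Among the decapping genes, the catalytic subunit and its partner went apart. DCP2, which codes for the enzyme that cuts the cap, had 297 CPM at 30 °C against 326 CPM at 39 °C, which gives a log2 ratio of 0.13 (0.06 to 0.21). DCP1, which codes for its essential activator subunit, had 231 CPM at 30 °C against 155 CPM at 39 °C, with a log2 ratio of -0.58 (-0.68 to -0.47). The intervals of both genes exclude no change, in opposite directions. Over all tested reading frames the interval lay above no change for 31.5% and below it for 38.8%. The ratio of DCP2 lay at percentile 64.2 of all tested reading frames and that of DCP1 at percentile 12.2. Per kilobase of feature, DCP1 had 3.26 times the own-strand level of DCP2 at 30 °C (counting interval 3.1 to 3.43) and 1.99 times at 39 °C (1.85 to 2.14).

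DHH1, PAT1 and the EDC genes, which code for activators of decapping, lay within 2-fold between the libraries. DHH1 and EDC2 were higher at 39 °C and PAT1 lower, beyond counting error. DHH1, the gene of a DEAD-box helicase that represses translation and promotes decapping, had 104 CPM at 30 °C against 125 CPM at 39 °C, or a log2 ratio of 0.26 (0.14 to 0.39). PAT1, whose product bridges Dhh1 and the Lsm1-7 ring, had 137 CPM at 30 °C against 121 CPM at 39 °C, with -0.18 (-0.31 to -0.06). EDC3, coding for a scaffold protein of P-bodies, had 149 CPM at 30 °C against 139 CPM at 39 °C, and its interval holds no change (-0.21 to 0.02). The paralogs EDC1 and EDC2 code for small proteins that stimulate the decapping enzyme. EDC2 had 56.7 CPM at 30 °C against 75.5 CPM at 39 °C, the highest log2 ratio of the decapping genes with 0.41 (0.25 to 0.58). EDC1 stood lower, with 27.6 CPM and 29.8 CPM, and its log2 ratio of 0.11 has an interval that holds no change (-0.15 to 0.36). Per kilobase, EDC2 had 2.47 times the level of EDC1 at 30 °C (2.16 to 2.84) and 3.06 times at 39 °C (2.6 to 3.61).

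The LSM genes, which code for the seven-member Lsm1-7 ring that binds the shortened 3′ end of mRNA, were all lower at 39 °C by value. Lsm2 to Lsm7 also sit in a nuclear ring with Lsm8 that binds U6 RNA, while Lsm1 marks the cytoplasmic ring. LSM1 came nearest to no change, with 53.4 CPM at 30 °C against 50.2 CPM at 39 °C, a log2 change of -0.09 (-0.28 to 0.1). The 6 genes of the shared subunits had a median log2 ratio of -0.41. The interval of each of the 6 lay below no change, which also held for 38.8% of all tested reading frames and 45.6% of those under 600 bases. LSM6 was the most read of all 40 genes, with 449 CPM at 30 °C against 376 CPM at 39 °C, which gives a log2 ratio of -0.26 (-0.32 to -0.19). LSM7 followed a like course from 153 CPM to 126 CPM (-0.28), and LSM2 from 187 CPM to 151 CPM (-0.31). LSM4, whose product has a long asparagine-rich tail that promotes P-body assembly, went from 116 CPM at 30 °C to 80.9 CPM at 39 °C, with a log2 ratio of -0.51 (-0.66 to -0.37). LSM3 (YLR438C-A, chromosome XII, 1013909 to 1014178, RefSeq build R64) had 105 CPM at 30 °C against 57.6 CPM at 39 °C, or a log2 ratio of -0.86 (-1.03 to -0.7). LSM5 (YER146W, chromosome V, 462585 to 462866) had 33.6 CPM at 30 °C against 19.1 CPM at 39 °C, a log2 change of -0.81 (-1.11 to -0.53) on counts of 392 and 133.

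LSM5 overlaps the reading frame YER145C-A on the opposite strand over 239 of its 282 bases, and YER145C-A itself had 1.2 CPM at 30 °C. The part of reads set aside as ambiguous in the level of LSM5 was not tested. No other member overlaps a gene of the RefSeq annotation. For 12 members a feature next in systematic number has no position in that annotation, so an overlap with it could not be checked. They are DCP1, DHH1, LSM3 and LSM5 of the decapping genes, UPF3, SKI2, and the regulators STM1, MPT5, SCD6, PUB1, PUF4 and WHI3.

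The LSM genes are short, with feature lengths from 261 to 564 bases, and short reading frames had a lower median log2 ratio than longer ones. The median log2 ratio was -0.31 over the 7 LSM genes and -0.17 over 1416 tested reading frames under 600 bases. Over 4746 longer ones it was -0.0045. Of the 1416 short frames, 110 were at least 2-fold higher at 39 °C and 77 at least 2-fold lower. Across the 40 members, length and log2 ratio had a Spearman correlation of 0.44, and across all 6162 tested reading frames one of 0.18. For the 30 °C level per kilobase and the log2 ratio it was -0.54 and -0.45, and the 30 °C count enters both of these measures. Whether the LSM ratios go with length or with level was not tested. These correlations are across genes of the same pair of libraries and describe them only.

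**Figure D3:**
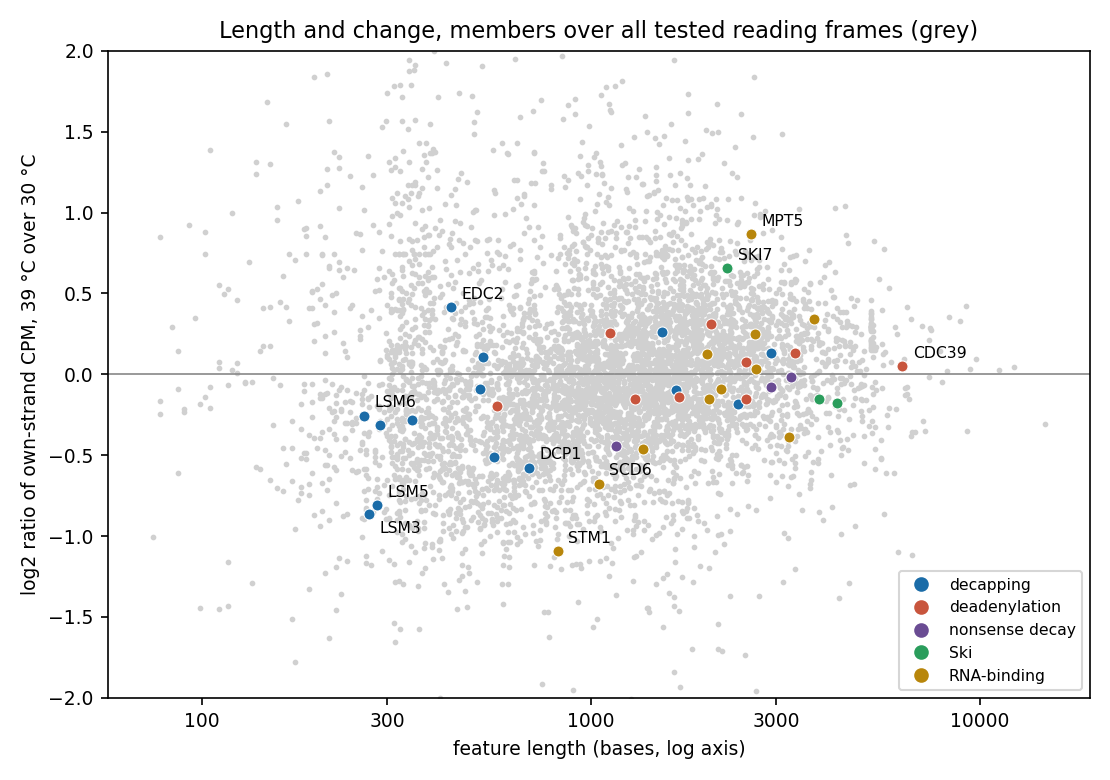
Feature length in bases on a log axis against the log2 ratio of own-strand CPM, 39 °C over 30 °C, for the members in colour by group and all tested reading frames in grey; 42 reading frames lie beyond the vertical range. The short LSM genes sit below zero, EDC2 above it at a similar length, and most long members near zero.

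The deadenylation genes stayed closest together of the larger groups. All 9 had log2 ratios between -0.20 and 0.31. CCR4, which codes for the main deadenylase, had 53.8 CPM at 30 °C against 48.3 CPM at 39 °C, and its interval holds no change (-0.35 to 0.04). POP2, the gene of the second nuclease of the complex, had 78.0 CPM and 70.2 CPM (-0.31 to 0.01). CDC39, coding for the Not1 scaffold that holds the complex together, had 282 CPM at 30 °C against 292 CPM at 39 °C (-0.03 to 0.13). The values of these 3 genes differed between the libraries by no more than counting error allows.

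The other Not subunits showed small differences in either direction. NOT3 was the most read of the group, with 357 CPM at 30 °C against 375 CPM at 39 °C, which gives a log2 ratio of 0.07. NOT5 had 194 CPM at 30 °C against 176 CPM at 39 °C, with -0.14 (-0.24 to -0.04). CDC36, which codes for the Not2 subunit, had 93.8 CPM at 30 °C against 81.7 CPM at 39 °C, the lowest log2 ratio of the group with -0.20 (-0.35 to -0.05). CAF40, the gene of a conserved subunit bound to Not1, had 43.3 CPM at 30 °C against 51.8 CPM at 39 °C, with a log2 ratio of 0.26 (0.06 to 0.46). Both genes of the Pan2-Pan3 enzyme were higher by value. PAN2, its nuclease, had 164 CPM at 30 °C against 179 CPM at 39 °C, or a log2 ratio of 0.13 (0.03 to 0.24). PAN3, its RNA-binding partner, had 54.0 CPM at 30 °C against 67.0 CPM at 39 °C, with 0.31 (0.14 to 0.49).

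In nonsense-mediated decay, the helicase gene and its nearest partner were level while UPF3 was lower. NAM7, which codes for the Upf1 helicase, had 207 CPM at 30 °C against 197 CPM at 39 °C, a log2 change of -0.08 (-0.17 to 0.02). NMD2, coding for Upf2, had 244 CPM at 30 °C against 241 CPM at 39 °C, with -0.02 (-0.11 to 0.07). UPF3 had 138 CPM at 30 °C against 101 CPM at 39 °C, which gives a log2 ratio of -0.45 (-0.58 to -0.32), and its interval does not overlap those of the other two. Per kilobase, UPF3 had 1.59 times the level of NMD2 at 30 °C (1.49 to 1.69) and 1.18 times at 39 °C (1.08 to 1.29).

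The Ski genes also split. SKI2, the helicase gene of the complex, had 245 CPM at 30 °C against 220 CPM at 39 °C, with a log2 ratio of -0.15 (-0.24 to -0.06). SKI3, coding for its scaffold, had 377 CPM at 30 °C against 334 CPM at 39 °C, with -0.18 (-0.25 to -0.1). SKI7 (YOR076C, chromosome XV, 469377 to 471620), whose product links the Ski complex to the exosome, went the other way, from 126 CPM at 30 °C to 199 CPM at 39 °C, or a log2 ratio of 0.66 (0.55 to 0.76). Its ratio lay at percentile 90.4 of all tested reading frames. Per kilobase, SKI2 had 1.13 times the level of SKI7 at 30 °C (1.06 to 1.2) and 0.64 times at 39 °C (0.6 to 0.69), so the order of both genes was exchanged.

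The RNA-binding regulators held both the highest and the lowest ratio of the 40 genes. STM1 (YLR150W, chromosome XII, 440467 to 441288) codes for a ribosome-associated protein that binds idle ribosomes and takes part in the decay of some mRNAs. It had 267 CPM at 30 °C, from 3109 reads, and 125 CPM at 39 °C, from 868 reads. Its log2 ratio was -1.09 (-1.2 to -0.99), at percentile 2.04 of all tested reading frames. An overlap of STM1 with the unplaced feature YLR149C-A, or of MPT5 with YGL177W, could not be checked. MPT5 (YGL178W, chromosome VII, 167352 to 170571), which codes for the Pumilio-family repressor also called Puf5, had 121 CPM at 30 °C, from 1415 reads, and 221 CPM at 39 °C, from 1537 reads. Its log2 ratio was 0.87 (0.76 to 0.97), at percentile 94.2, and the whole interval is below 2-fold.

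The other Pumilio genes, whose products bind sequence elements in the 3′ ends of mRNAs, did not share the value of MPT5. PUF3, coding for the regulator of mRNAs for mitochondrial proteins, had 182 CPM at 30 °C against 216 CPM at 39 °C, a log2 change of 0.25 (0.15 to 0.35). PUF4, whose product binds many mRNAs of ribosome assembly, had 184 CPM at 30 °C against 188 CPM at 39 °C, and its interval holds no change (-0.07 to 0.13). PUF2, whose product binds mRNAs of membrane-associated proteins, had 307 CPM at 30 °C against 235 CPM at 39 °C, with -0.39 (-0.47 to -0.3). The intervals of the 4 log2 ratios do not overlap each other, in the order PUF2, PUF4, PUF3 and MPT5.

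Among the other regulators, SCD6 and PUB1 were lower at 39 °C, SSD1 was higher, and the rest lay near no change. SCD6, which codes for a translation repressor that binds the initiation factor eIF4G, had 33.9 CPM at 30 °C against 21.1 CPM at 39 °C, which gives a log2 ratio of -0.68 (-0.96 to -0.4) on counts of 395 and 147. PUB1, the gene of a poly(U)-binding protein, had 142 CPM at 30 °C against 103 CPM at 39 °C, with -0.46 (-0.59 to -0.34). PBP1, coding for the yeast relative of ataxin-2 that binds the poly(A)-binding protein, had 230 CPM at 30 °C against 215 CPM at 39 °C, with a log2 ratio of -0.09. NGR1, an RNA-binding protein gene and the least read per kilobase of all 40, had 31.1 CPM at 30 °C against 27.9 CPM at 39 °C, and its interval holds no change (-0.41 to 0.1). WHI3, whose product binds the mRNA of the cyclin Cln3, had 41.1 CPM and 44.9 CPM (-0.08 to 0.34). SSD1, coding for a repressor of cell wall mRNAs, had 161 CPM at 30 °C against 204 CPM at 39 °C, or a log2 ratio of 0.34 (0.24 to 0.44).

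Levels of different genes were compared per kilobase of feature, as own-strand CPM divided by the length in the authors' deposited table. For 4 members the RefSeq span is longer than that length, LSM2 by 128, LSM7 by 96, NMD2 by 113 and MPT5 by 640 bases. Whether reads in the rest of the span were counted is not known here. Over the longer span their levels per kilobase would be lower, and the effect on their rank was not tested. The decapping genes had a median of 124 CPM per kilobase at 30 °C and 128 at 39 °C, at percentiles 67.3 and 70.0 of all tested reading frames. The deadenylation genes lay lowest, with medians of 48.9 and 53.5 CPM per kilobase, at percentiles 35.7 and 37.9. Between them came nonsense decay with 74.6 and 73.6, the RNA-binding regulators with 68.8 and 72.8, and the Ski genes with 63.4 and 77.6. Over all tested reading frames the median was 74.1 at 30 °C and 73.5 at 39 °C. The groups overlapped widely, as decapping genes spanned 52.3 to 1719 CPM per kilobase at 30 °C and deadenylation genes 21.4 to 163.

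Most LSM genes and DCP1 stood highest in the decapping group. At 30 °C, LSM6 led with 1719 CPM per kilobase, at percentile 99.4 of all tested reading frames. LSM2 came next with 651, then LSM7 with 439, LSM3 with 388 and DCP1 with 332. STM1 with 324 overlapped DCP1 within counting error. Of the other members, LSM4 with 205 alone lay above percentile 75. The 7 LSM genes had a median of 388, against 117 over all tested reading frames under 600 bases. The decapping genes other than LSM genes had a median of 89.9.

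Mip6 reads per kilobase on the mRNAs of subunits that work in 1 complex ranged from near equal to more than 10-fold apart. They do not measure the amounts of the subunits. NMD2 and NAM7 came closest of the pairs compared, with a ratio per kilobase of 1.05 at 30 °C whose interval holds equality (0.99 to 1.11) and of 1.09 at 39 °C (1.02 to 1.17). NOT3 had 1.23 times the level of NOT5 at 30 °C (1.17 to 1.29) and 1.43 times at 39 °C (1.33 to 1.53). SKI3 had 1.39 times the level of SKI2 at 30 °C (1.32 to 1.45) and 1.36 times at 39 °C (1.28 to 1.46). These pairs lay close, while others in the same complexes did not. Per kilobase, LSM6 had 16.7 times the level of LSM1 at 30 °C (15.4 to 18.2) and 14.9 times at 39 °C (13.3 to 16.7). NOT3 had 6.64 times the level of CCR4 at 30 °C (6.1 to 7.23) and 7.77 times at 39 °C (6.93 to 8.73). PAN2 had 1.85 times the level of PAN3 at 30 °C (1.69 to 2.03) and 1.63 times at 39 °C (1.46 to 1.82). Below percentile 25 at 30 °C stood SCD6 with 32.3, PAN3 with 26.4, CCR4 with 21.4, WHI3 with 20.7 and NGR1 with 15.4 CPM per kilobase. The order of the 40 levels was largely kept at 39 °C, with a Spearman correlation of 0.908 across the members and 0.956 across all tested reading frames. In that order 26 of 39 neighbouring pairs had overlapping counting intervals at 30 °C and 30 of 39 at 39 °C. The order of close neighbours is therefore not settled.

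**Figure D4:**
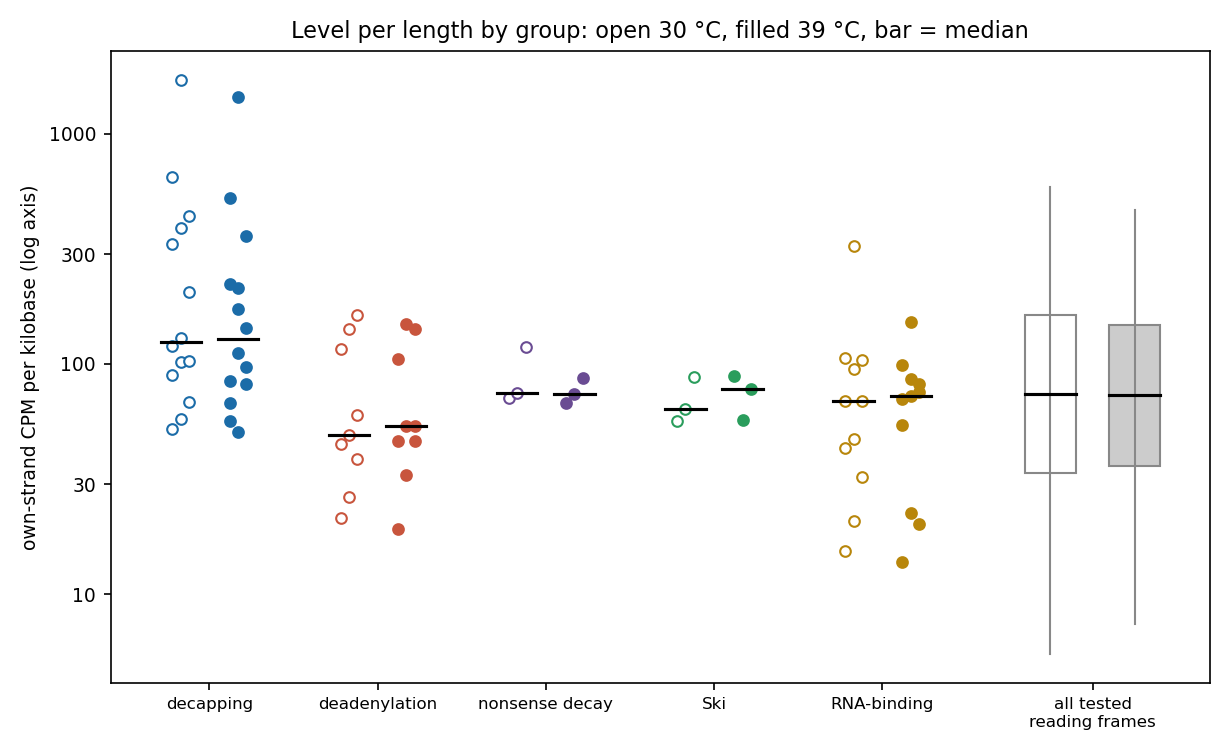
Own-strand CPM per kilobase on a log axis by group at 30 °C (open) and 39 °C (filled), 1 point per gene, with black bars for medians. Boxes at the right give the quartiles, median and 5th to 95th percentile whiskers of all tested reading frames; the decapping median lies above and the deadenylation median below the median of all reading frames.

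Reads on the strand opposite the gene were a small share for most members and a large one for a few. The median share over the 40 genes was 5.62% at 30 °C and 7.72% at 39 °C, against 6.01% and 8.08% over all tested reading frames. It was higher at 39 °C for 36 of the 40, as it was for 80.0% of all tested reading frames. At least 20% of reads were on the other strand for 4 members at 30 °C and 6 at 39 °C, against 20.1% and 23.9% of all tested reading frames. PAN3 had the highest share, 27.6% at 30 °C (exact interval 24.7 to 30.7) and 45.0% at 39 °C (41.6 to 48.4). CAF40 followed with 24.6% at 30 °C and 41.7% at 39 °C, then EDC1 with 23.7% and 33.4% and CCR4 with 22.9% and 29.3%. CDC39 passed 20% at 39 °C alone, with 7.68% at 30 °C and 20.5% at 39 °C, and EDC2 had 18.5% and 20.7%.

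The ratio of the other-strand reads was like that of the own-strand reads in some genes and far above it in others. SKI7 had log2 ratios of 0.66 on its own strand and 0.62 on the other (0.19 to 1.05). For EDC2 they were 0.41 and 0.62 (0.27 to 0.96), and for MPT5 0.87 and 0.60. At least 2-fold higher at 39 °C on the other strand were 5 members, against 10.5% of all reading frames with at least 20 such reads, and none was 2-fold lower, against 1%. The log2 ratio of other-strand reads was 1.75 (1.28 to 2.26) for DHH1, from 54 and 109 reads. It was 1.68 (1.47 to 1.89) for CDC39, from 274 and 523 reads. EDC3 and PAN3 each had 1.41, and CAF40 had 1.39 (1.1 to 1.68). The own-strand ratios of the same 5 genes lay between -0.10 and 0.31. None of the 5 overlaps another gene of the RefSeq annotation, but 3 have a gene of the opposite strand beside them. EDC3 has YEL014C 18 bases away and NPP2 410 bases away, CDC39 has MSH3 296 bases away, and DHH1 has YDL159W-A 251 bases away. On their own strand these neighbours had 1.46, 72.1, 178 and 0.43 CPM at 30 °C. PAN3 lies between GPX1 and URA6 on its own strand, and CAF40 between SEC21 on its own strand and SNR40, whose strand was not used here. The part of the neighbours in the other-strand reads was not tested. Counted over both strands, the log2 ratio was 0.71 for PAN3, 0.63 for CAF40 and 0.26 for CDC39. The share of the 40 genes past 2-fold on the other strand is near the background.

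**Figure D5:**
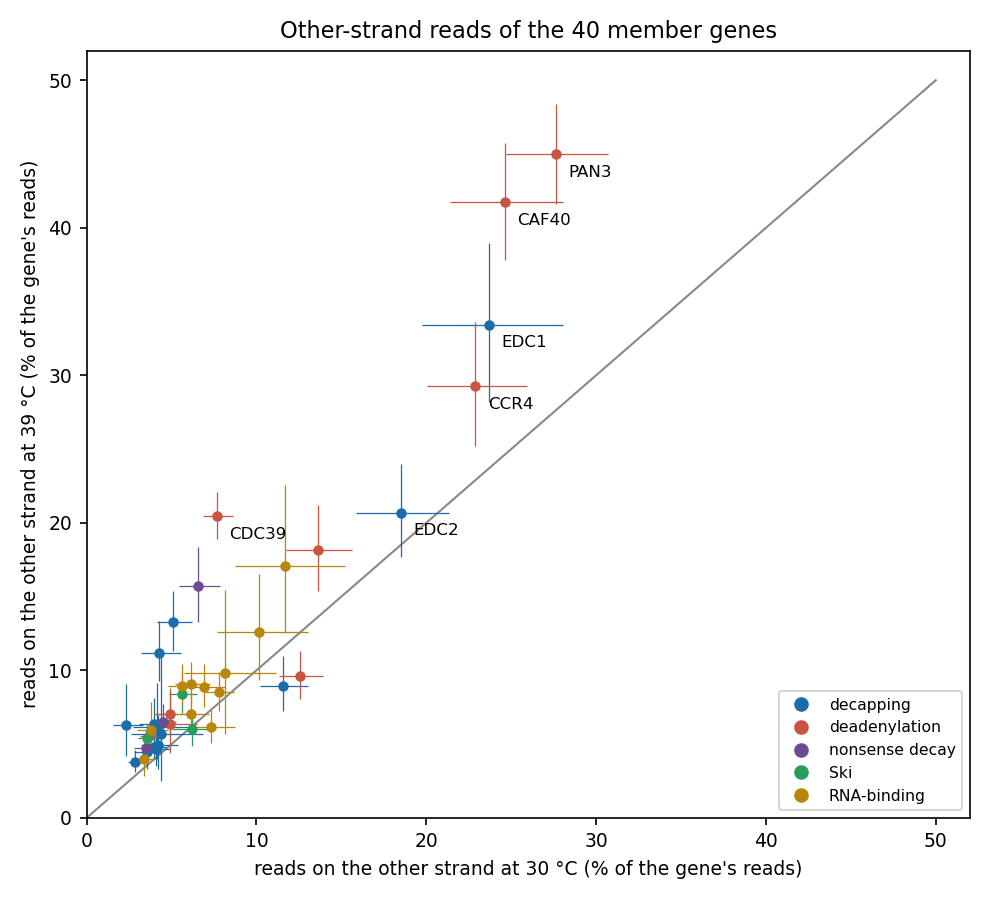
Share of a gene's reads on the strand opposite the gene, in percent, at 30 °C against 39 °C for the 40 members coloured by group, with exact 95% binomial intervals; the line marks equal shares. PAN3, CAF40, EDC1, CCR4, CDC39 and EDC2, which reach 20%, are named, and most points lie above the line.

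Other genes of the same pathways were taken from a list of 47 names, of which 46 matched a feature. None was at least 2-fold higher at 39 °C and 1 was at least 2-fold lower, again near the 4.4% and 2.69% of all tested reading frames. Their median log2 ratio was -0.22. XRN1, the gene of the exonuclease that acts after decapping, had 371 CPM at 30 °C against 268 CPM at 39 °C, a log2 change of -0.47 (-0.55 to -0.39). PAB1, coding for the poly(A)-binding protein, had 175 CPM at 30 °C against 148 CPM at 39 °C, with -0.25 (-0.36 to -0.14). MOT2, the gene of the Not4 ubiquitin ligase, had 84.7 CPM and 82.4 CPM (-0.19 to 0.11), and SKI8, the remaining Ski subunit gene, 38.2 CPM and 44.0 CPM (-0.01 to 0.42). DCS2, a scavenger-decapping paralog gene, had -0.15. The 12 exosome and Mtr4 genes had a median of -0.20, and the interval of 11 lay below no change. Over all 46 listed genes the interval lay below no change for 32 and above it for 8, against 38.8% and 31.5% of all tested reading frames.

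The gene past 2-fold was LSM8, which codes for the nuclear partner of the LSM proteins. It had 4.98 CPM at 30 °C against 1.15 CPM at 39 °C, which gives a log2 ratio of -2.04 (-3.39 to -1.04), from only 58 and 8 reads, and the feature next to it in number, YJR023C, has no position in the annotation. With the total of the gene's own strand file as the scale, 3 of these genes were at least 2-fold lower, and with at least 100 reads required none was. DED1, coding for a helicase of translation initiation that enters heat-induced granules, had 299 CPM at 30 °C against 546 CPM at 39 °C, with a log2 ratio of 0.87 (0.8 to 0.94). Chosen after their values were seen, CTH1, an mRNA decay factor gene, had 0.92, the stress-granule gene NRP1 had -0.99, and the RNA-binding protein gene MRN1 lay just short of 2-fold lower.

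The authors' deposited table holds its own comparison, whose log2 ratio runs opposite to the ratio used here. With its sign turned it had a Pearson correlation with the own-strand ratio of 0.998 across the 40 members and 0.95 across all tested reading frames. For the 40 members the turned ratio in the authors' deposited table differed from the own-strand ratio by -0.07 to 0.07. Of the other pathway genes, LSM8, SKI8 and SBP1 differed most. Their turned ratios were -1.30, -0.06 and -0.70, against own-strand ratios of -2.04, 0.21 and -0.94. The authors' deposited table calls 3 members down, STM1, LSM3 and LSM5, and none up, against 5.12% and 3.05% of all features with a value. With the sign turned, the ratios in the authors' deposited table were -1.04 for STM1, -0.79 for LSM3 and -0.77 for LSM5. MPT5, with 0.91 in the authors' deposited table, is listed there as flat with a probability of 0.89, next to the 0.9 above which features are called.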

How the data were processed

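Mip6 PAR-CLIP reads were analysed from the 4 deposited count files, a minus-strand and a plus-strand file per temperature. The deposited values are raw counts of reads in each feature. They were made with Bowtie 1.1.1 and HTSeq on the builds sacCer3 and R64, per the submitters' processing notes. Not given in the sources used here are the strand setting, the mismatch filter and any removal of duplicates; PCR copies are not independent molecules. Of all counted reads, 22.3% to 24.7% lay in no feature and 3.92% to 13.3% were ambiguous, and these were left out. The authors' deposited table holds a log2 ratio and a probability, which is a score of the authors' comparison and not a p-value. Its tool is not named there. Another 2 columns of it match no label and were not used.

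Both files of a temperature were taken as 1 library. Reading frames with at least 20 own-strand reads over both libraries were compared (Python 3.11.15, numpy 2.4.6, scipy 1.17.1). With 1 library per temperature no test was run; a 2-fold ratio was the rule for a call. Ratio intervals are exact conditional binomial, level intervals Poisson and share intervals Clopper-Pearson. The calculation was tested on simulated Poisson counts. These hold no spread between cultures and no PCR copies, so they check the arithmetic only. Alternatives used edgeR 4.0.16 TMM factors, DESeq2 1.42.0 size factors, other totals, both strands, another pseudocount, other minimum reads and thinning. All 40 members were named; other pathway genes were named past 2-fold or from a short list. Members, groups and lists were chosen with earlier results of these data known. Coordinates come from RefSeq R64, which matched 6048 features and all members by locus tag. Promoter and protein sequences were not used here.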

Additional observations from a re-analysis of the deposited data

How the results depend on the processing

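The count of 0 members at least 2-fold higher and 1 at least 2-fold lower held under both other normalizations, strand-file totals, both strands summed, a pseudocount of 1, no minimum of reads, a minimum of 100, thinning of the 30 °C library and centring on the median of all reading frames. STM1 lies on the plus strand, so members of the minus strand alone gave 0 lower. The count of 1 other pathway gene lower became 3 with strand-file totals, 3 with the thinned library, where genes near 2-fold crossed it, and 0 with at least 100 reads, which leaves out LSM8. The decapping median of -0.22 was -0.19 when centred on the median of all reading frames and 0.010 without LSM2 to LSM7. Centred by length class, under 600 bases or longer, it was -0.10, a comparison added after seeing the data. With both strands summed, medians per kilobase at 30 °C were 142 for decapping, 51.4 for deadenylation, 78.1 for nonsense decay, 67.1 for Ski and 73.3 for RNA-binding genes, and at 39 °C 59.7, 78.7, 82.1 and 79.6 for the last 4. Without LSM5, also added later, the decapping median at 39 °C was 143. Neither change of the minimum of reads could move a member or the member counts, as every member had at least 525 own-strand reads over both libraries. Both other normalizations and the centring shift every gene by the same amount. With these settings included, 355 of 360 alternative values of single members stayed inside the counting interval. The other 5, all from summing strands, were 0.71 for PAN3, 0.63 for CAF40, 0.26 for CDC39, -0.30 for UPF3 and 0.03 for EDC3. The sign of EDC3 turned there, and that of NMD2 turned under 4 alternatives. No paired analysis was possible because each temperature has 1 library. Depth limits LSM5, EDC1, SCD6, NGR1 and LSM8 most.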
